A study of Mus musculus with 8 samples.

Results

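Shared promoters of the embryonic mouse forebrain were defined here as merged ATAC-seq peak regions that carried a peak in all 8 samples, were narrower than 6000 bp and overlapped 1 kb either side of a protein-coding transcript start. Of 286181 merged regions on chromosomes 1 to 19, 66854 had a peak in all 8 samples and 13956 met every criterion. They served 13681 of 20698 protein-coding genes (66.1%), and 892 shared start-site regions of 6000 bp or more were left out by the width limit. The chromatin was profiled by single-nucleus ATAC-seq on the 10x Genomics platform, in which a transposase cuts open DNA inside nuclei, from wild-type mice. There were 2 samples each of cortex (CTX), medial ganglionic eminence (MGE), lateral ganglionic eminence (LGE) and caudal ganglionic eminence (CGE), the last 3 together being the ganglionic eminences (GE). All were taken at embryonic day E12.5 except CTX replicate 2, which was taken at E14.5, so that the spread of the CTX pair contained a difference in age. Each comparison of CTX with GE therefore mixed age with region, since all GE samples were taken at E12.5. The labels name no treatment and do not say whether replicates came from separate litters, so p-values measured only the spread between these samples.

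A promoter is the DNA around a transcript start where the transcription machinery assembles. Many mammalian promoters lie in CpG islands, stretches rich in the CG dinucleotide that are usually unmethylated and nucleosome-depleted in most tissues, and these serve broadly expressed genes as well as many developmental regulators. Promoters poor in CpG more often serve genes with restricted expression. In the embryonic telencephalon the cortex gives rise to glutamatergic projection neurons, and the eminences to GABAergic neurons. Distal enhancers are known to vary more between tissues than promoters do.

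The files held 3465 to 6845 nuclei per sample and 77387940 to 138873845 counts in each sample's own peaks. Between 34340876 and 64327674 of these counts per sample fell in shared promoters. Levels are given as the counts of a region relative to the total counts in shared promoters (counts per 1000000, CPM) after scaling by the trimmed mean of M values (TMM) over those promoters, so an equal rise of every promoter could not be seen. Counts were summed over the nuclei of a sample, so fewer nuclei with an open promoter and less opening per nucleus could not be told apart. Peaks had been called in each sample separately, and a sample's peaks covered 72.8% of the total promoter length in LGE replicate 1 up to 86.9% in CTX replicate 1. Because a shorter called peak holds fewer counts, folds are also given per covered length, with the covered bases of each sample as an offset. Pairs of libraries shared 15 to 56 cell barcodes, at most 1.17% of the smaller library.

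The promoters were richer in GC and CpG than the other shared regions. Their median GC content was 53.9%, against 47.3% in the 52898 other regions with a peak in all 8 samples. The largest CpG count in any 200-bp stretch had a median of 24 in shared promoters and of 6 in the other shared regions. Median width was 2107 bp and 1367 bp, respectively, so the largest count was taken over longer regions in the promoters. A transcript start lay inside the peak region itself for 95.3% of the promoters, and 1241 of them (8.89%) held starts of genes on both strands. Of 18911 merged regions at a transcript start, 78.5% had a peak in all 8 samples, compared with 19.5% of the merged regions elsewhere.

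Upstream sequences are printed to show promoters that varied least and promoters that differed between regions. Each gives the 200 bases before a transcript start in the RefSeq annotation of GRCm38.p6, 5′ to 3′ on the strand of the gene, with every CG dinucleotide in capitals. The first 3 belong to promoters among the 5 with the smallest spread over the samples: Ric1 (chr19:29522082-29522281, + strand), Ivns1abp (chr1:151344286-151344485, + strand) and Kpna4 (chr3:69127093-69127292, − strand). The other 4 belong to promoters that differed between regions and are described further on: Gast (chr11:100334207-100334406, + strand), Galnt15 (chr14:32028903-32029102, + strand), Smarcd2 (chr11:106267633-106267832, − strand) and Slc17a7 (chr7:45163721-45163920, + strand). Slc17a7 is shown because its upstream stretch holds few CG although another 200-bp stretch of its peak region holds 28.
Ric1: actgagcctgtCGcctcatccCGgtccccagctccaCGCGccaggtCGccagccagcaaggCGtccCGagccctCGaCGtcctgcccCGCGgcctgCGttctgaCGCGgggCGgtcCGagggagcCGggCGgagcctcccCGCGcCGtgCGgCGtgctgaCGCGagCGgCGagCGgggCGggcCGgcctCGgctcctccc
Ivns1abp: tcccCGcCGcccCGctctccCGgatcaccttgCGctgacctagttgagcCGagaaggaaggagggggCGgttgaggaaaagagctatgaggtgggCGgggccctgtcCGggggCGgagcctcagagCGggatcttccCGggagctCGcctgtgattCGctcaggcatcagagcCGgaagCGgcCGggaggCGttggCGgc
Kpna4: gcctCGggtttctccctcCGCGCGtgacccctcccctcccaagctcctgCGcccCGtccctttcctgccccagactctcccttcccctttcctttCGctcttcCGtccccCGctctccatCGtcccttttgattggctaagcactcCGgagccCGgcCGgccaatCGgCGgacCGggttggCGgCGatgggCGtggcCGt
Gast: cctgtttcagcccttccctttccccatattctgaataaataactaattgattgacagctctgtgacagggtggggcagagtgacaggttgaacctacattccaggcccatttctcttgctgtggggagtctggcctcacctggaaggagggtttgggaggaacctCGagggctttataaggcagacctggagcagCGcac
Galnt15: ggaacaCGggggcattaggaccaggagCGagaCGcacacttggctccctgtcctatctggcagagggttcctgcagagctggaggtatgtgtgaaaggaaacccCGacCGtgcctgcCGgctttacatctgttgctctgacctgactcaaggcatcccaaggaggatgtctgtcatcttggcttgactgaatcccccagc
Smarcd2: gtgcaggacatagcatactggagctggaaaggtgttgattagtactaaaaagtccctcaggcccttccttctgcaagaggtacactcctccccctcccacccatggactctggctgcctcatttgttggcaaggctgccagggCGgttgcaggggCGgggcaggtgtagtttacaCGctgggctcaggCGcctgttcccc
Slc17a7: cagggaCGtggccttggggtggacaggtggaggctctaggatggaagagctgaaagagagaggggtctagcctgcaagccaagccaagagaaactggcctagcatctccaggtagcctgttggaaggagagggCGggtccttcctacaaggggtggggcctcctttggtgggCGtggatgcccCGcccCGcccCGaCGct

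In these stretches Ric1 had 31 CG dinucleotides, Ivns1abp 19 and Kpna4 20, and the other two of the 5 with the smallest spread had 14 (Stk38l) and 13 (Mob1a). Gast had 2, Smarcd2 4, Galnt15 6 and Slc17a7 7. Among other promoters called here that had such a stretch, Rab17 had 3, Fgr 9, Rarb 12 and Cnr1 29, so the counts of promoters that differed and of those that varied least overlapped. Such a RefSeq window lay wholly inside 9652 of the 13956 shared promoters (69.2%). The median CpG count of the window was 15 in the 8128 of them whose highest-to-lowest CPM ratio over the samples was under 2, and 7 in the 1524 with a ratio of 2 or more. Over all 31205 distinct windows of the table it was 5.

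Short motifs were searched on both strands of the same windows, each on its own, so that 1 base could count for several. The GC box GGGCGG, which binds Sp1-family factors, was present in 62.1% of windows with a ratio under 2, in 48.4% of those with a ratio of 2 or more and in 31.4% of all windows. CCGGAAG, the core bound by ETS factors, was present in 13.3%, 4.53% and 6.42%, respectively. TGCGCA, a partial site of NRF1, followed the same order of the first 2 classes, at 11.5% and 4.27%, with 5.74% over all windows. The TATA box letters TATAAA were present in 3.60% of windows under the 2-fold ratio, in 5.97% of the others and in 9.85% of all windows, and the Gast window above was among those that held them. CAGATG, an E-box bound by neurogenic basic helix-loop-helix factors, was present in 7.06%, 10.7% and 11.6%. These shares describe letters, not binding.

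The level of most shared promoters changed little over the 8 samples. The standard deviation (SD) of log2 CPM over the samples had a median of 0.207 for shared promoters and of 0.574 for the other shared regions. The highest level was less than 2 times the lowest in 10872 of 13956 promoters (77.9%), and in 22.7% of the other regions. A ratio above 4 was seen in 859 promoters (6.16%), compared with 41.7% of the other regions. Over the 6 GE samples alone, which were of 1 age, the median SD was 0.187 and 88.1% of promoters stayed under a ratio of 2. Within pairs of the same region, 91.9% of promoters differed by less than 2-fold between the CTX samples, and 97.7% to 98.5% did so in the 3 eminences.

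Shared promoters were also higher than the other regions, with a median of 60.9 CPM against 10.1 CPM, and the spread fell with the level. The comparison was therefore repeated within 4 bands of level that held 3489 promoters each. In the lowest band, under 30.3 CPM, the median SD was 0.393 for 3489 promoters and 0.610 for 44756 other regions. In the highest band, above 99.2 CPM, it was 0.152 and 0.255, and 96.2% of promoters against 67.1% of other regions stayed under a ratio of 2. The order was the same in all 4 bands. The other regions of the highest band had a median width of 6617 bp, and 646 of the 1426 were the start-site regions of 6000 bp or more that the width limit had left out. With these set aside, a comparison added after the values were seen, the 780 regions of this band with no start site had a median SD of 0.294, and 59.2% stayed under a ratio of 2.

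**Figure D1:**
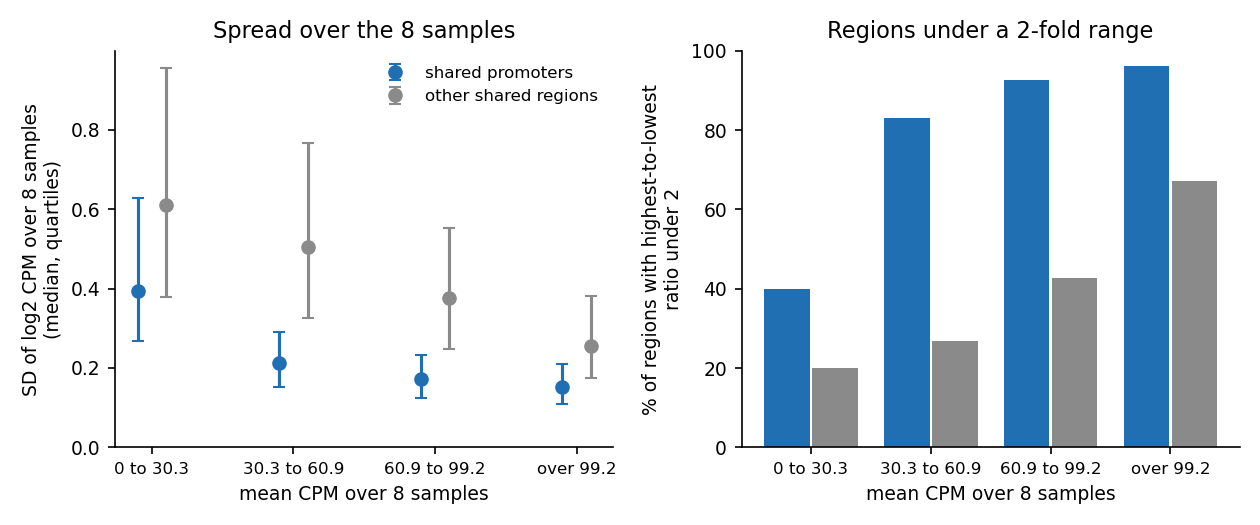
Spread of shared promoters (blue) and of other regions with a peak in all 8 samples (grey), in 4 bands of promoter level. Left, SD of log2 CPM over the 8 samples, with points at the median and bars at the quartiles. Right, percentage of regions whose highest CPM was less than 2 times the lowest. In each band the promoters had the smaller median SD, from 0.393 in the lowest to 0.152 in the highest.

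The 5 promoters with the smallest SD among those above the median level varied by a few percent. Ric1, part of an exchange factor for the Golgi GTPase Rab6, lay between 103 and 108 CPM in the 8 samples, with a median of 105 CPM (chr19:29521549-29523918). Stk38l, a kinase of the NDR family, ranged from 93.4 to 99.0 CPM around a median of 95.4 CPM. Ivns1abp, a BTB-Kelch protein, ranged from 175 to 185 CPM around a median of 182 CPM. The promoter that Mob1a, an activator of NDR and LATS kinases, shares with Mthfd2, a mitochondrial folate enzyme, ranged from 81.5 to 85.7 CPM around 82.4 CPM. Kpna4, an importin that carries proteins into the nucleus, ranged from 159 to 169 CPM around 162 CPM. The highest sample was at most 1.06 times the lowest in each of these 5, which were picked for their small spread.

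Genes for basic cell functions were examined as 6 lists, for cytosolic ribosomal proteins, the proteasome, RNA polymerase II, respiratory complex I, translation initiation and splicing. Of their 267 genes, 252 had a shared promoter, and 9 more had only a shared start-site region of 6000 bp or more. The 261 promoters of the 6 lists had a median SD of 0.157, 250 of them (95.8%) stayed under a ratio of 2, and 225 (86.2%) held a 200-bp stretch with 20 or more CpG. The 12 promoters of radial glia and cycling progenitor genes had a median SD of 0.141, and 0 were called in any comparison by edgeR's quasi-likelihood test, where 5.18% of all shared promoters were, a share at which 12 promoters often hold no call. By contrast, 41 promoters of genes that mark the pallium, the subpallium, MGE, LGE or CGE had a median SD of 0.304, and 21 of them (51.2%) stayed under a ratio of 2. Genes named Zfp, most of which encode zinc-finger proteins, had a median SD of 0.180 over 352 promoters. Of these, 310 (88.1%) stayed under a ratio of 2, and 180 held a 200-bp stretch with 20 or more CpG.

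Most regional marker genes did not enter by the rule at all. Of the 89 genes on the 5 regional lists, 30 had a shared promoter and 55 had only a shared start-site region of 6000 bp or more. Among the pallial genes 6 of 29 had a shared promoter, and among the subpallial genes 2 of 18. The start regions of the wide class had a median SD of 0.257, and 142 of 892 (15.9%) differed between CTX and GE at an adjusted p of 0.05 or less, near the 14.7% of all shared regions.

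**Figure D2:**
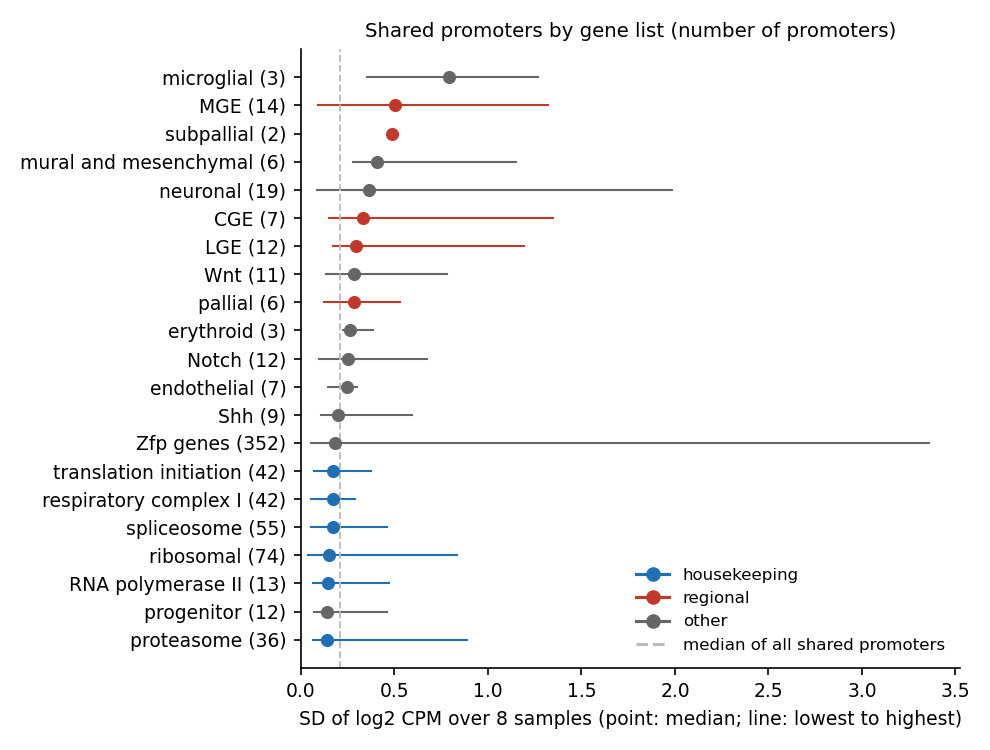
SD of log2 CPM over the 8 samples for the shared promoters of each gene list, with the number of promoters in brackets. Points are medians, lines run from the lowest to the highest promoter, blue marks housekeeping lists, red regional lists and grey other lists. The housekeeping lists lie at medians of 0.140 to 0.173, left of the median of all shared promoters at 0.207 (dashed line), and the regional lists at 0.285 to 0.501.

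The distance between 2 samples was measured as the root-mean-square (RMS) difference of log2 CPM over all shared promoters. It averaged 0.459 for the 4 pairs from the same region and 0.533 for the 24 pairs from different regions, a difference of 0.0748 (one-sided exact permutation test over all 105 ways to pair the samples, p = 0.0190). Over the other shared regions the averages were 0.862 and 1.18, and the difference of 0.315 gave p = 0.00952 by the same exact test, the smallest it can give. The 2 CTX samples were 0.635 apart, farther than 7 of the 12 pairs of a CTX and a GE sample, and only MGE replicate 1 had a sample of its own region as its nearest neighbour. The closest pair of all was LGE replicate 2 with CGE replicate 2, at 0.318. Samples also resembled those of the same replicate number. The nearest neighbour of 7 of the 8 samples had the same number, and odd values made up 9.54% to 10.4% of the nonzero values in the 4 samples numbered 1 and 5.17% to 5.85% in the 4 numbered 2. Pairs from different regions averaged 0.512 with the same number and 0.554 with different numbers. Among pairs of different number only, a comparison added after the values were seen, same-region pairs were closer by 0.0959 (one-sided exact permutation p = 0.0417, the smallest that 24 matchings allow). In all 28 pairs the distance over promoters was smaller than that over the other regions. These pairs share 8 samples, and the 2 kinds of region were not compared at a like level here. Over the 4 same-region pairs the exact sign-flip p was 0.125, the smallest that 4 pairs allow.

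These distances were sensitive to the called peak length. Per covered kilobase, the same-region and different-region pairs differed by 0.0120 (exact p = 0.314). Leaving out MGE replicate 1 gave 0.0414 (exact p = 0.267). Leaving out replicate 1 or 2 of the LGE gave 0.0527 (exact p = 0.152) and 0.0705 (exact p = 0.0857), and for the CGE replicates 0.0676 (exact p = 0.0952) and 0.0717 (exact p = 0.0667).

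**Figure D3:**
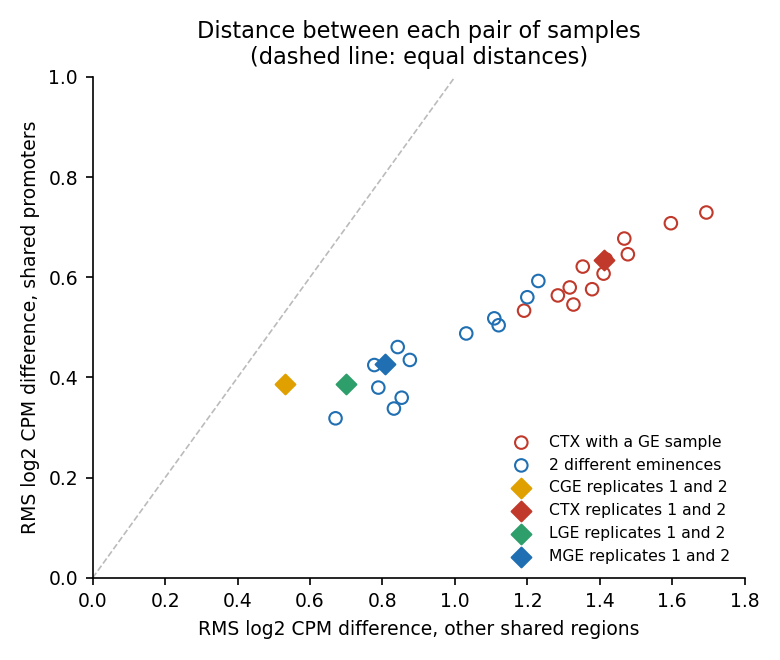
RMS difference of log2 CPM between each pair of samples over shared promoters (vertical) and over the other shared regions (horizontal). Diamonds are the 2 replicates of a region, circles are pairs from different regions, and the dashed line marks equal distances. All 28 pairs lie below the line, and the CTX pair, at 0.635 over promoters, lies among the pairs of a CTX and a GE sample.

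The share of all counts that fell in shared promoters was lower in the cortex. It was 33.7% in CTX replicate 1 and 40.9% in CTX replicate 2, and from 43.1% to 47.6% in the 6 GE samples. The means were 37.3% ± 5.10 (SD, n = 2) and 45.8% ± 1.63 (SD, n = 6), and the difference of −8.50 percentage points gave an exact two-sided permutation p of 0.0357, the smallest that 28 choices of 2 samples allow. With only the counts in regions shared by all samples as the total, the difference was −4.42 points. It was −4.89 points without CTX replicate 1 and −12.1 points without CTX replicate 2, where the smallest possible exact p is 0.143. Per nucleus, the median share was 32.4% and 39.7% in the CTX samples and 41.8% to 46.5% in the GE samples. The called peaks numbered 181339 and 167718 in the CTX samples and 103633 to 182638 in the GE samples. The part of peak number in these shares was not tested.

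Fewer shared promoters than other regions differed between CTX and GE. At an adjusted p of 0.05 or less (edgeR quasi-likelihood test, Benjamini-Hochberg over all 66854 shared regions), 496 of 13956 promoters (3.55%) were called, where the share over all regions tested was 14.7%. Of these, 303 were higher in CTX (2.17% of promoters, against 10.1% of all regions) and 193 were lower (1.38%, against 4.6%). CPM did not overlap between the groups in 454 of the 496, and in 1758 of all 13956 promoters (12.6%). The median log2 difference over all promoters was −0.01 on this scale, which is set by the promoters themselves. The median size of the log2 difference was 0.14 for promoters and 0.52 for the other shared regions.

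The count moved when single samples were left out. Each of these fits left 1 sample in a group, so only the other groups gave the spread behind the count. Without CTX replicate 1 or CTX replicate 2 it was 1018 and 1067. The balance of directions moved too, from 61.1% higher in CTX to 47.5% (484 of 1018) without CTX replicate 1 and to 51.2% (273 of 533) with TMM over all regions. When replicates 1 and 2 of the MGE were left out in turn it was 206 and 302, for those of the LGE 225 and 199, and for those of the CGE 235 and 156. Over all shared regions the same fits called between 5.99% and 26.02%. Per covered length 254 promoters were called, 184 of them among the 496.

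CpG-poor promoters differed more often than CpG-rich ones. Of the 496 called, 192 (38.7%) had fewer than 10 CpG in their richest 200 bp, compared with 1546 of all 13956 promoters (11.1%), and 149 (30.0%) had 20 or more, compared with 67.9% of all. The make-up differed by direction. Of the 303 higher in CTX 135 were CpG-poor (44.6%) and 68 CpG-rich (22.4%), and of the 193 lower in CTX 57 (29.5%) and 81 (42.0%). Put the other way, 12.4% of the 1546 CpG-poor promoters were called, 5.29% of the 2929 with 10 to 19 CpG, and 1.57% of the 9481 with 20 or more. The median SD over the 8 samples fell in the same order, from 0.503 through 0.266 to 0.179. CpG-poor promoters were lower, with a median of 11.3 CPM, but the order held at like levels. In the lowest band of promoter level 11.7% of CpG-poor and 1.57% of CpG-rich promoters were called, and in the highest band 15.6% of 32 and 1.31% of 3126.

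**Figure D4:**
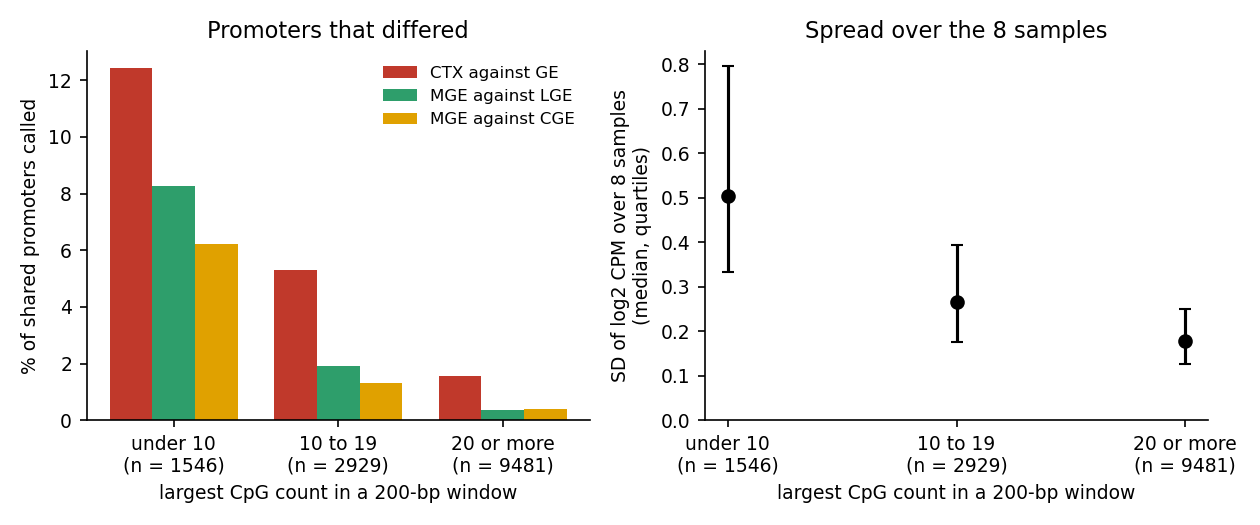
Shared promoters by the largest number of CpG in any 200 bp. Left, percentage called at an adjusted p of 0.05 or less in 3 comparisons. Right, SD of log2 CPM over the 8 samples, with points at the median and bars at the quartiles. From the CpG-poor to the CpG-rich class the percentage called for CTX against GE went from 12.4% to 1.57% and the median SD from 0.503 to 0.179.

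Many of the promoters that differed were secondary starts. For 1721 of the 13956 promoters (12.3%), every gene served had another shared start-site region with a higher mean CPM, and these weaker starts made up 177 of the 496 called (35.7%). Of the weaker starts 10.3% were called, compared with 2.61% of the 12235 that were the strongest shared start of a gene. At a like CpG count, 4.06% of the CpG-rich weaker starts and 1.45% of the CpG-rich strongest starts were called. With 10 to 19 CpG the shares were 10.6% and 4.22%, and among CpG-poor promoters 13.6% and 11.2%. Weaker starts were lower by their definition, at a median of 18.7 CPM against 67.9 CPM, and 43.3 against 78.6 among CpG-rich ones. The classes were not compared at a like level. Among the 1241 promoters with starts on both strands 11 were called (0.886%). Their median level was 92.7 CPM, against 57.9 CPM for the other promoters. A start lay inside the region itself for 425 of the 496 called. Of the 649 promoters with no start inside, 10.9% were called, compared with 3.19% of the 13307 with a start inside. The median levels of these 2 classes were 8.72 and 64.1 CPM.

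The 4 promoters with the largest rise in CTX, chosen by a rule on fold, peak coverage and separation of the groups, held 3 secondary starts. Called promoters outside that rule reached larger log2 differences, up to 5.40 for a rise in CTX and 4.94 for a fall. The value of 5.40 was that of a weaker start of Zfp395. It rests on 1 and 2 counts in the LGE samples and was 1.35 per covered length. Epha4, a receptor for ephrins in axon guidance, has an annotated start 137481 bp from its most upstream one (chr1:77377113-77379310). This region measured 34.7 and 70.1 CPM in CTX replicates 1 and 2, and 1.09, 1.94 and 3.46 CPM as the lowest, median and highest of the 6 GE samples. The log2 fold was 4.72 ± 0.43 (SE, edgeR adjusted p = 0.00261), and 2.60 per covered length. The strongest shared start region of the gene averaged 244 CPM.

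Dnmt3a, a de novo DNA methyltransferase, differed at a start 59664 bp from its most upstream one (chr12:3865952-3867583). CPM was 65.4 and 19.05 in CTX and from 1.80 to 5.89 in GE, with a GE median of 2.22. The log2 fold was 3.83 ± 0.51 (SE, edgeR adjusted p = 0.00530), and 2.28 per covered length. Cmtr1, which methylates the mRNA cap, was 54.0 and 7.51 CPM in CTX and 1.38 to 4.16 CPM in GE, with a median of 1.59, at a start 18666 bp inside the gene (chr17:29679813-29681359). Its log2 fold of 3.77 ± 0.67 (SE, edgeR adjusted p = 0.0126) was 1.98 per covered length, and the call was lost without CTX replicate 1 (adjusted p = 0.0720), MGE replicate 1 or CGE replicate 2. Galnt15, an enzyme that starts mucin-type O-glycosylation, differed at its only shared start region (chr14:32027926-32029521), with 55.7 and 9.37 CPM in CTX and 1.68 to 3.17 CPM in GE, with a median of 2.57. The log2 fold was 3.66 ± 0.55 (SE, edgeR adjusted p = 0.00734) and 2.23 per covered length. For Dnmt3a, Cmtr1 and Galnt15 the E12.5 CTX sample was the higher of the pair and for Epha4 the E14.5 sample, and age could not be told apart from replicate.

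The promoters with the 4 largest falls under the same rule were at 1.68 to 4.32 CPM in the CTX samples. Gast, which encodes the hormone precursor of gastrin, measured 3.75 and 2.74 CPM in CTX and 27.1, 48.7 and 82.4 CPM as the lowest, median and highest in GE (chr11:100332125-100334584). The log2 fold was −3.86 ± 0.34 (SE, edgeR adjusted p = 0.00246), and −2.14 per covered length. Usp49, a deubiquitinase, measured 1.68 and 3.35 CPM in CTX and 15.01 to 45.1 CPM in GE, with a median of 29.0 (chr17:47648200-47649553, log2 fold −3.48 ± 0.43 SE, edgeR adjusted p = 0.00442). No start lay inside that region itself, and the strongest shared start region of Usp49 averaged 157 CPM. Ppp1r17, a protein phosphatase inhibitor, measured 2.22 and 2.38 CPM in CTX and 10.1 to 34.2 CPM in GE, with a median of 22.7 (chr6:56016838-56018716, log2 fold −3.16 ± 0.31 SE, edgeR adjusted p = 0.00265). Smurf1, a ubiquitin ligase of bone morphogenetic protein signalling, measured 2.07 and 4.32 CPM in CTX and 20.6 to 35.0 CPM in GE, with a median of 28.6, at a start 67853 bp inside the gene (chr5:144897457-144899539, log2 fold −3.13 ± 0.37 SE, edgeR adjusted p = 0.00391). Per covered length the last 3 folds were −2.02, −1.74 and −1.71. The 8 promoters of both directions had at most 9 CpG in any 200 bp, and 7 of the 8 calls held without each of the 8 samples in turn, the exception being Cmtr1.

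**Figure D5:**
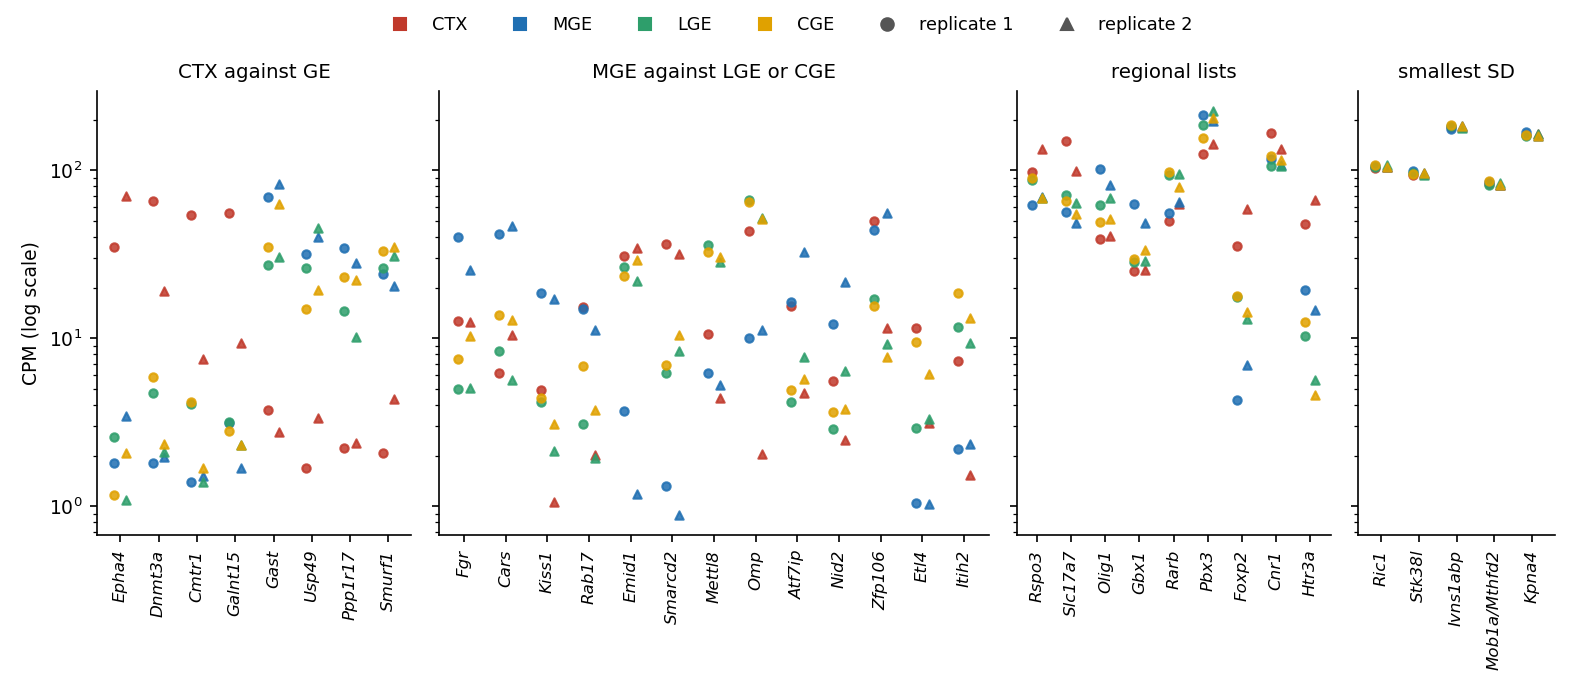
CPM on a log scale of named promoters in each sample (circles, replicate 1; triangles, replicate 2; colours, regions). Panels show, by the rule on fold, coverage and separation, the largest folds for CTX against GE, the largest folds for MGE against LGE or CGE, 9 called promoters of the regional lists and the 5 promoters of smallest SD. In the first panel the 4 promoters at left have both CTX samples above all GE samples and the next 4 have them below, and in the last panel the highest sample is at most 1.06 times the lowest.

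The regional marker genes described here as called between CTX and GE had log2 folds from −0.75 to 2.44. Of the 41 such promoters, 10 were called in at least 1 comparison (24.4%, against 5.18% of all shared promoters and 23.2% of all shared regions), 8 of them between CTX and GE (19.5%, against 3.55% of all shared promoters and 14.7% of all shared regions). Slc17a7, the vesicular glutamate transporter VGLUT1 on the pallial list, was higher in CTX, at 149 and 98.7 CPM, than in GE, at 48.3, 60.1 and 71.3 CPM as the lowest, median and highest (log2 fold 1.05 ± 0.17 SE, edgeR adjusted p = 0.00968). It is a CpG-rich promoter whose call held without each sample, but per covered length its log2 fold was 0.42 (adjusted p = 0.0899).

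Olig1, a transcription factor of oligodendrocyte precursors and ventral progenitors, measured 39.0 and 40.7 CPM in CTX, 102 and 81.9 in MGE, 62.3 and 68.7 in LGE and 49.3 and 51.1 in CGE. Its level was lower in CTX than in GE (log2 fold −0.75 ± 0.15 SE, edgeR adjusted p = 0.0165) and higher in MGE than in CGE (0.89 ± 0.16 SE, edgeR adjusted p = 0.0141). The first call was lost without CGE replicate 2 or LGE replicate 2 (adjusted p = 0.0574), and the second without MGE replicate 1, CGE replicate 1 (adjusted p = 0.0759) or CGE replicate 2. Rspo3, a secreted enhancer of Wnt signalling on the pallial and Wnt lists, measured 97.7 and 133 CPM in CTX and 62.1 to 90.4 CPM in GE, with a median of 68.7 (edgeR adjusted p = 0.0493), and the call held without only 1 of the 8 samples and was lost with the replicate number as a block (adjusted p = 0.0748). Pbx3, a homeodomain cofactor on the LGE list, measured 125 and 143 CPM in CTX and 156 to 226 CPM in GE, with a median of 201 (edgeR adjusted p = 0.0445). Cnr1, the cannabinoid receptor on the CGE list, measured 168 and 134 CPM in CTX and 105 to 121 CPM in GE, with a median of 111 (edgeR adjusted p = 0.0435). The Pbx3 call held without 2 of the 8 samples and the Cnr1 call without 1. Per covered length the calls of Rspo3, Pbx3 and Cnr1 were lost (adjusted p = 0.0841, 0.152 and 0.703).

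A further 2 listed promoters were CpG-poor and higher in the cortex, although their genes were listed for LGE and CGE. Htr3a, a serotonin receptor channel of CGE-derived interneurons, measured 47.7 and 66.5 CPM in CTX, 19.3 and 14.8 in MGE, 10.3 and 5.65 in LGE and 12.4 and 4.59 in CGE (log2 fold for CTX against GE 2.44 ± 0.38 SE, edgeR adjusted p = 0.00821). Foxp2, a forkhead factor of striatal and deep-layer cortical neurons, differed at a start 295602 bp from its most upstream one (chr6:15195758-15197768). There CPM was 35.5 and 58.4 in CTX, 4.30 and 6.94 in MGE, 17.6 and 12.9 in LGE and 17.7 and 14.4 in CGE (log2 fold for CTX against GE 2.08 ± 0.29 SE, edgeR adjusted p = 0.00565). Both calls held per covered length and without each sample. Foxp2 was also lower in MGE than in LGE (−1.44 ± 0.32 SE, edgeR adjusted p = 0.0267) and in CGE (−1.50 ± 0.32 SE, edgeR adjusted p = 0.0242), calls that were lost without LGE replicate 1 (adjusted p = 0.122) and CGE replicate 1 (adjusted p = 0.116), respectively, and in both cases without MGE replicate 1. Without CGE replicate 2 the latter was lost too. With the replicate number as a block both were lost (adjusted p = 0.0548 and 0.0523).

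Among the 6 GE samples, 204 promoters (1.46%) were called in the test for any difference among MGE, LGE and CGE, where the share over all shared regions was 9.8%. For MGE against LGE 219 were called (1.57%, against 9.42% of all regions), 128 of them higher in MGE (0.917%, against 4.31%) and 91 lower (0.652%, against 5.11%). MGE against CGE gave 174 calls (1.25%, against 8.56%), of which 89 were higher in MGE (0.638%, against 2.6%) and 85 lower (0.609%, against 5.96%). These 2 comparisons share the MGE samples. LGE against CGE gave 0 calls among promoters, where 0.012% of all regions were called, and 446 promoters (3.20%) had an unadjusted p under 0.05, a limit that 5% would pass with no difference. DESeq2 called 105 promoters (0.752%), where it called 3.89% of all regions. CpG-poor promoters made up 58.4% of the calls for MGE against LGE and 55.2% of those against CGE. Of the CpG-rich promoters 0.369% and 0.411% were called, respectively. A start lay inside the region itself for 166 of the 219 called against LGE and 138 of the 174 against CGE. Over all shared promoters this share was 95.3%. Against CGE the make-up differed by direction. Of the 89 higher in MGE 39.3% were CpG-poor and 40.4% CpG-rich, and of the 85 lower 71.8% and 3.53%.

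The eminence counts moved with the fit and when single samples were left out. In the latter fits 1 eminence had 1 sample, so only the other groups gave the spread. With a fit of the promoters alone 9 were called for MGE against LGE, 4 for MGE against CGE and 8 for any difference, and with the CTX samples in the model 6, 5 and 2. The share of all shared regions called fell in the latter model too. It went from 9.42% to 0.503% for MGE against LGE and from 8.56% to 0.416% for MGE against CGE. Of the 22 eminence calls named by the rule on fold or from the regional lists, the latter model kept those of Fgr (adjusted p = 0.0398) and Cars (adjusted p = 0.0440) against LGE and both of Smarcd2 (adjusted p = 0.0448 and 0.0409). For MGE against LGE the count was 89 without MGE replicate 1, 87 without LGE replicate 1 and 473 without MGE replicate 2. For MGE against CGE it was 59 without MGE replicate 1, 49 without CGE replicate 1, 57 without CGE replicate 2 and 524 without MGE replicate 2. The test for any difference gave 63, 126, 354 and 104 without MGE replicate 1, CGE replicate 1, MGE replicate 2 and CGE replicate 2, and LGE against CGE gave 5 and 32 without LGE replicate 1 and LGE replicate 2. The balance of directions moved as well, to 27 higher in MGE of 88 called against LGE per covered length, and against CGE to 140 of 226 with TMM over all regions and 176 of 267 with a GC offset. Without CGE replicate 2 it moved the other way, to 7 of 57.

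Among the largest rises in MGE over LGE under the rule on fold, coverage and separation was a weaker start of Cars. Its product charges transfer RNA with cysteine. No start lay inside this region, and the strongest shared start region of Cars averaged 84.8 CPM. Cars measured 41.4 and 46.7 CPM in MGE, 8.39 and 5.65 in LGE and 13.8 and 12.8 in CGE (chr7:143594535-143596072, log2 fold 2.66 ± 0.27 SE, edgeR adjusted p = 0.00204). Fgr, a Src-family kinase, measured 40.0 and 25.3 CPM in MGE, 4.95 and 5.03 in LGE and 7.53 and 10.3 in CGE (chr4:132971686-132975494, log2 fold 2.72 ± 0.31 SE, edgeR adjusted p = 0.00291). Per covered length the folds were 1.46 for Cars and 0.95 for Fgr, the latter with an adjusted p of 0.0510. Kiss1, the precursor of kisspeptin, had its strongest shared start region at a mean of 27.2 CPM. A weaker start of Kiss1 measured 18.5 and 17.2 CPM in MGE, 4.15 and 2.13 in LGE and 4.38 and 3.07 in CGE (chr1:133320830-133322025). It was higher in MGE than in LGE (2.51 ± 0.39 SE, edgeR adjusted p = 0.00693) and than in CGE (2.28 ± 0.38 SE, edgeR adjusted p = 0.0103), the second call being lost without MGE replicate 1 or CGE replicate 2 (adjusted p = 0.0652). Rab17, a GTPase of epithelial trafficking, measured 14.9 and 11.3 CPM in MGE and 3.09 and 1.94 in LGE (2.38 ± 0.41 SE, edgeR adjusted p = 0.0108), a call lost without MGE replicate 1 (adjusted p = 0.0568). The folds against LGE per covered length were 1.56 for Kiss1 and 1.11 for Rab17, and that of Kiss1 against CGE was 1.40.

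Of the promoters lower in MGE, that of Emid1, an extracellular EMI-domain protein, lay 21479 bp from the most upstream start of the gene. The strongest shared start region of Emid1 averaged 40.8 CPM. This weaker start measured 3.67 and 1.18 CPM in MGE, 26.7 and 22.0 in LGE, 23.3 and 29.3 in CGE and 30.9 and 34.2 in CTX (chr11:5128014-5130655). The log2 fold was −3.27 ± 0.47 against LGE (SE, edgeR adjusted p = 0.00534) and −3.38 ± 0.47 against CGE (SE, edgeR adjusted p = 0.00534). Mettl8, a transfer RNA methyltransferase, measured 6.16 and 5.26 CPM in MGE and 35.7 and 28.6 in LGE at a start 82195 bp inside the gene, with 32.6 and 30.3 in CGE (chr2:70972551-70973622, log2 fold against LGE −2.48 ± 0.24 SE, edgeR adjusted p = 0.00183). Omp, the olfactory marker protein, measured 9.96 and 11.2 CPM in MGE, 66.2 and 52.0 in LGE and 64.6 and 51.6 in CGE (chr7:98145499-98150959, log2 fold against LGE −2.47 ± 0.22 SE, edgeR adjusted p = 0.00145). In CTX the Omp promoter was at 43.3 CPM at E12.5 and 2.05 CPM at E14.5. Per covered length the folds against LGE were −1.48, −2.06 and −0.97, and all 3 calls held without each of the 6 samples. With all 8 samples in 1 model all 3 were lost (adjusted p = 0.0562, 0.0661 and 0.389), and in the fit of promoters alone that of Emid1 was lost (adjusted p = 0.0765).

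Smarcd2, a subunit of the BAF chromatin remodeller, measured 1.32 and 0.886 CPM in MGE, 6.19 and 8.38 in LGE, 6.90 and 10.4 in CGE and 36.1 and 31.5 in CTX at a start 5173 bp inside the gene (chr11:106267125-106269592). The log2 folds of −2.69 ± 0.40 against LGE (SE, edgeR adjusted p = 0.00626) and −2.94 ± 0.41 against CGE (SE, edgeR adjusted p = 0.00532) were −0.30 and −0.36 per covered length, where neither passed the test (adjusted p = 0.800 and 0.713). Peaks covered from 237 to 2463 bp of this region. Against CGE, Itih2, a heavy chain of the inter-alpha-trypsin inhibitor, measured 2.20 and 2.33 CPM in MGE and 18.7 and 13.3 in CGE (−2.80 ± 0.31 SE, edgeR adjusted p = 0.00293, and −1.57 per covered length). No start lay inside the Itih2 region itself. The Etl4 region was a weaker start, 812845 bp from the most upstream one, and the strongest shared start region of Etl4 averaged 59.7 CPM. Etl4 measured 1.05 and 1.03 CPM in MGE and 9.55 and 6.12 in CGE (−2.89 ± 0.42 SE, edgeR adjusted p = 0.00630), and its call was lost per covered length (log2 fold −0.83, adjusted p = 0.266) and without CGE replicate 1 (adjusted p = 0.0595).

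Under the same rule the largest rises in MGE over CGE beside Kiss1 were at Atf7ip, Nid2 and Zfp106. Atf7ip, a partner of the histone methyltransferase SETDB1, measured 16.5 and 32.7 CPM in MGE and 4.91 and 5.70 in CGE (2.23 ± 0.41 SE, edgeR adjusted p = 0.0146). Nid2, a basement membrane protein, measured 12.1 and 21.6 CPM in MGE and 3.63 and 3.78 in CGE (2.20 ± 0.44 SE, edgeR adjusted p = 0.0194). No start lay inside the Atf7ip region or the Nid2 region itself. The zinc-finger gene Zfp106 measured 44.1 and 55.5 CPM in MGE and 15.5 and 7.74 in CGE (2.11 ± 0.40 SE, edgeR adjusted p = 0.0154). Each lay at a weaker start of its gene, and none of the 3 calls held without CGE replicate 2. Without CGE replicate 1 the adjusted p was 0.0818 for Atf7ip and 0.0968 for Nid2, without CGE replicate 2 it was 0.0691 for Zfp106, and the Nid2 call was also lost without MGE replicate 2 and the Zfp106 call without MGE replicate 1. Atf7ip, Nid2 and Zfp106 had folds of 1.45, 1.06 and 1.74 per covered length.

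From the regional lists, Gbx1, a homeodomain factor on the MGE list, measured 63.2 and 48.5 CPM in MGE, 28.5 and 29.0 in LGE, 29.7 and 33.3 in CGE and 24.98 and 25.4 in CTX. It was higher in MGE than in LGE (0.97 ± 0.20 SE, edgeR adjusted p = 0.0205) and than in CGE (0.84 ± 0.20 SE, edgeR adjusted p = 0.0356). Rarb, a retinoic acid receptor on the LGE list, measured 55.3 and 64.7 CPM in MGE and 94.2 and 94.8 in LGE, with 97.3 and 79.0 in CGE (log2 fold against LGE −0.64 ± 0.16 SE, edgeR adjusted p = 0.0404). Per covered length none of these 3 calls held (adjusted p = 0.832, 0.103 and 0.154). Each was lost without MGE replicate 1 and without either sample of the other eminence, with adjusted p up to 0.0920 for Gbx1 against LGE, 0.186 for Gbx1 against CGE and 0.163 for Rarb. The replicate block also ended the calls of Gbx1 against CGE (adjusted p = 0.0507) and Rarb (adjusted p = 0.0558).

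The Notch and Wnt signalling pathways were examined as further lists. Of 12 shared promoters of Notch pathway genes, 1 was higher and 2 were lower in CTX (25% together, against 3.55% of all shared promoters and 14.7% of all shared regions). These were Notch2, a receptor, at 110 and 122 CPM in CTX and 73.5 to 90.8 in GE with a median of 83.2 (edgeR adjusted p = 0.0340), Dll3, a ligand, at 72.6 and 54.0 CPM in CTX and 85.5 to 163 in GE with a median of 107 (edgeR adjusted p = 0.0325), and Mfng, which glycosylates Notch, at 118 and 127 CPM in CTX and 143 to 245 in GE with a median of 151 (edgeR adjusted p = 0.0361). Within GE, Mfng was called higher in MGE, at 245 and 197 CPM, than in LGE, at 148 and 143 CPM (log2 fold 0.61, edgeR adjusted p = 0.0293), and than in CGE, at 146 and 154 CPM (0.58, edgeR adjusted p = 0.0393). Each of the 3 calls for CTX against GE held without only 1 or 2 of the 8 samples. Neither these nor the Mfng calls within GE held per covered length, and the log2 fold of Notch2 turned from 0.51 to −0.38 there (adjusted p = 0.179). Of 11 Wnt pathway promoters 2 were called in any comparison (18.2%, against 5.18% of all shared promoters and 23.2% of all shared regions). Rspo3 was called between CTX and GE (9.09% of the list, against 3.55% and 14.7%), and a weaker start of Ctnnb1, which encodes beta-catenin, was higher in MGE, at 11.2 and 11.3 CPM, than in LGE, at 3.73 and 3.66 CPM (edgeR adjusted p = 0.0125). The Ctnnb1 call was lost per covered length, with a log2 fold of 0.46 instead of 1.62 (adjusted p = 0.472).

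Markers of other cell types were read in the same way, although 3 of 10 microglial, 6 of 10 endothelial, 3 of 10 erythroid and 6 of 10 mural and mesenchymal genes had a shared promoter. The 3 microglial promoters summed to 27.5 and 42.8 CPM in CTX and to 48.0 to 67.0 CPM in GE, the 7 endothelial promoters to 275 and 333 CPM and to 254 to 335 CPM, and the 3 erythroid promoters to 132 and 148 CPM and to 109 to 145 CPM. The 6 mural and mesenchymal promoters summed to 129 and 225 CPM in CTX and 108 to 175 CPM in GE. P2ry12, a microglial receptor, was called lower in CTX (edgeR adjusted p = 0.0453), and Dcn, a matrix proteoglycan of meningeal cells, was called higher, at 24.7 CPM in the E12.5 and 112 CPM in the E14.5 CTX sample against a GE median of 11.5 (edgeR adjusted p = 0.0247). Each was the only call of its list between CTX and GE, among 3 and 6 promoters. Of all shared promoters 3.55% were called there, and of all shared regions 14.7%. Csf1r, the receptor of macrophage colony-stimulating factor, was lower in MGE, at 5.72 and 5.55 CPM, than in CGE, at 19.5 and 20.9 CPM (edgeR adjusted p = 0.00546), a call lost per covered length, where the log2 fold was −0.66 instead of −1.83 (adjusted p = 0.174). With all 8 samples in 1 model (adjusted p = 0.359) and in the fit of promoters alone that call was lost too. Csf1r was also called lower in MGE than in LGE, at 14.2 and 11.0 CPM (log2 fold −1.15, edgeR adjusted p = 0.0256), and this call was likewise lost per covered length (adjusted p = 0.0999). The log2 fold of Dcn was 2.29 and, per covered length, 1.33. The P2ry12 call held without 1 of the 8 samples and was lost with the replicate block (adjusted p = 0.0671), and the Dcn call held without 2. The part of these cells in the other differences was not tested. Outside the regional lists, 30 calls were made among the promoters of cell type, pathway, housekeeping and Zfp lists that the rule on fold had not named, and 9 of these held per covered length. Leaving out MGE replicate 1 ended 21 of them, leaving out replicate 1 or 2 of the CGE ended 16 and 19, and of the LGE 18 and 20.

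Of 19 pan-neuronal promoters, 2 were higher and 1 was lower in CTX (15.8%, against 3.55% of all shared promoters and 14.7% of all shared regions). Elavl3, an RNA-binding protein of early neurons, was lower at 108 and 76.6 CPM, with 125, 153 and 201 CPM as the lowest, median and highest in GE (log2 fold −0.75 ± 0.17 SE, edgeR adjusted p = 0.0260). Its call held without 3 of the 8 samples. A weaker start of Map2, which encodes a dendritic microtubule protein, was higher at 26.6 and 62.2 CPM, with a GE range of 8.13 to 19.4 and a median of 13.3 (log2 fold 1.72 ± 0.33 SE, edgeR adjusted p = 0.0156), and held without 5 of the 8. A weaker start of Rbfox3, which encodes the neuronal nuclear antigen NeuN, was at 31.0 CPM in CTX replicate 1 and 3.22 CPM in CTX replicate 2, within the GE range of 0.231 to 6.42 (edgeR adjusted p = 0.0396), and held without 1 of the 8. The lowest of these levels, in MGE replicate 1, rests on 15 counts, and the call was lost per covered length (adjusted p = 0.0665) and with the replicate block (adjusted p = 0.114).

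Few promoters of the 6 housekeeping lists were called. In all, 3 of 261 were called in any comparison (1.15%, against 5.18% of all shared promoters and 23.2% of all shared regions), 2 of them between CTX and GE (0.766%, against 3.55% and 14.7%). The promoter shared by Psmb9, an immunoproteasome subunit, and Tap1, a peptide transporter, was higher in CTX, at 77.8 and 67.9 CPM, than in GE, at 37.8, 45.7 and 47.5 CPM as the lowest, median and highest (log2 fold 0.74 ± 0.15 SE, edgeR adjusted p = 0.0190). A weaker start of Psmd9, a proteasome assembly factor, measured 17.8 and 17.2 CPM in CTX, 14.7 and 14.1 in MGE, 5.53 and 3.33 in LGE and 7.59 and 6.62 in CGE (edgeR adjusted p = 0.0241 for CTX against GE and 0.0146 for MGE against LGE). The third was a promoter shared by Ndst1 and the ribosomal protein gene Rps14, at 103 and 93.6 CPM in MGE and 63.9 and 60.3 CPM in CGE (log2 fold 0.68 ± 0.14 SE, edgeR adjusted p = 0.0218). Per covered length the calls of Psmd9 (adjusted p = 0.0938 and 0.0789) and of the Ndst1 and Rps14 promoter (adjusted p = 0.142) were lost.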

How the data were processed

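Nuclei had been profiled with the 10x Genomics single-nucleus ATAC assay. Per the labels and file headers, the authors used Cell Ranger ATAC 1.2.0 with the mm10 (GRCm38) genome and deposited, for each sample, peaks called on that sample and a raw count matrix, peaks by barcodes. How barcodes were filtered is not stated there. The matrices hold transposition counts in whole numbers, mostly even because both fragment ends were counted. No annotation of cell types was used and doublets were not removed.

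Peaks of the 8 samples were merged on chromosomes 1 to 19, with touching intervals joined, and each peak's counts were summed over nuclei into its merged region. Starts of protein-coding transcripts came from GENCODE M21, and promoter windows from RefSeq (GRCm38.p6). The promoters and gene lists were chosen with earlier results of these data known. Library sizes and TMM factors were computed over shared promoters alone. All 66854 regions with a peak in all 8 samples were fitted with edgeR 4.0.16 (glmQLFit and glmQLFTest, R 4.3.3), with 4 group means over 8 samples for CTX against GE and 3 group means over the 6 GE samples for the eminences, and p-values were adjusted over all of them. The filter on low counts removed no region. The pipeline was checked on simulated counts. Log2 CPM used a prior count of 2. Depth differed by less than 2-fold in counts.

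Named promoters were, for each pairwise comparison, the 4 called promoters of largest fold, rising and falling, among those covered by at least 200 bp of peak in every sample, with groups that did not overlap in CPM and 1 or 2 genes, and every called promoter of the regional lists. Also named were the 5 with the smallest SD above the median level and the 5 highest, and, from other lists, up to 4 examples of smallest p for a comparison. Alternatives were another scaling, offsets for covered length or GC content, DESeq2 1.42.0, a replicate block and leaving out each sample. A fit without 1 sample had 1 sample left in that group, so only the other groups gave the spread. Transcription factor motif tables were deposited too and not used here. The results of 2 called promoters are not reported here.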

Additional observations from a re-analysis of the deposited data

How the results depend on the processing

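No fold changed sign among the 38 calls named by the rule on fold or from the regional lists. Of the other lists, Notch2 (−0.38, CTX against GE) and Zfp395 (−0.033, MGE against LGE) did so per covered length. Of the 38 calls, 26 held per covered length, 17 in a fit of promoters alone, 38 with DESeq2 and 35 with TMM over all regions, and of the 22 among the eminences 4 held with all 8 samples in 1 model. Promoters called for CTX against GE numbered 496, and 254 per covered length, 277 in a fit of promoters alone and 959 with DESeq2. For MGE against LGE the 219 became 88, 9 and 474, for MGE against CGE the 174 became 79, 4 and 445, and for any difference among the eminences the 204 became 97, 8 and 588. With all 8 samples in 1 model these 3 counts were 6, 5 and 2. A GC offset gave 267 for MGE against CGE and 323 for any difference. For LGE against CGE, with 0, total counts in promoters gave 3, a GC offset 4 and DESeq2 105. Leaving out 1 sample gave 156 to 1067 (CTX against GE), 87 to 473 (MGE against LGE), 49 to 524 (MGE against CGE), 63 to 354 (any difference) and 0 to 32 (LGE against CGE).

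The labels do not say that replicate numbers pair the samples. Deviations of same-numbered samples from their region means correlated at 0.0449 to 0.496 over promoters and at −0.0421 to 0.326 over all shared regions. Those of the CTX, LGE and CGE samples with each other were 0.167 to 0.496 over promoters, and those with MGE 0.0449 to 0.0999, so that not every pair passed 0.1 and the numbers were not taken to pair the samples. With a replicate block 527, 210, 166, 172 and 0 promoters were called for CTX against GE, MGE against LGE, MGE against CGE, any difference and LGE against CGE. The block ended 7 of the calls named here, of Rspo3, P2ry12, Rbfox3, Gbx1 (against CGE), Rarb and Foxp2 (against LGE and CGE). The block with a GC offset gave 610, 445, 389, 440 and 0.

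Per covered kilobase 85.5% of promoters stayed under a 2-fold range, instead of 77.9%. The mean distance of different-region pairs minus that of same-region pairs was 0.0120 there, instead of 0.0748. Leaving out 1 sample gave 78.4% to 82.9% of promoters and a median SD of 0.188 to 0.215. The same difference of distances was 0.0414 to 0.113, and the difference in the share of counts −12.1 to −4.89 points. The other settings of these values kept their direction and side of the threshold. The cause of these changes was not tested. The lowest levels named are those of Zfp395 in LGE, which rest on 1 and 2 counts, then 0.231 CPM of Rbfox3 in MGE replicate 1 (15 counts) and 0.886 CPM of Smarcd2 in MGE replicate 2 (30 counts).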

Other observations

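The 5 highest shared promoters were not among the 5 of smallest SD named above. Their SDs of log2 CPM, 0.0386 to 0.202, all lay below the median of 0.207 over all shared promoters. Ing1, a reader of histone methylation, ranged from 501 to 588 CPM over the 8 samples with a median of 573 CPM, and Sp1, the factor that binds GC boxes, from 406 to 475 CPM with a median of 435. Kat6b, a histone acetyltransferase, ranged from 353 to 514 CPM, and Ppp2r3d, a regulatory subunit of protein phosphatase 2A, from 349 to 483 CPM. The promoter between Fam72a and Srgap2, a regulator of neuronal migration, ranged from 405 to 434 CPM, a ratio of 1.07. Fam72a and Srgap2 stand on opposite strands, and the 1241 promoters of this kind had a median SD of 0.153, against 0.214 for the other 12715. Their median level was also higher, at 92.7 against 57.9 CPM, and the 2 kinds were not compared at a like level.

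Genes named Zfp had 6 of 352 shared promoters called between CTX and GE by edgeR at an adjusted p of 0.05 or less (1.70%, against 3.55% of all shared promoters and 14.7% of all shared regions). The 4 of smallest p were those of Zfp395, Zfp599, Zfp750 and Zfp800. Zfp599 was higher in CTX, at 51.8 and 62.3 CPM against 25.9 to 38.6 CPM in GE (edgeR adjusted p = 0.0191), and the call held per covered length and without 5 of the 8 samples. Zfp750 was lower, at 1.66 and 3.05 CPM against 5.73 to 9.44 CPM (edgeR adjusted p = 0.0261), and Zfp800 was lower, at 98.2 and 74.4 CPM against 117 to 138 CPM (edgeR adjusted p = 0.0343). Both of these calls were lost per covered length (adjusted p = 0.881 and 0.0934), and they held without 2 and 1 of the 8 samples. A weaker start of Zfp395 measured 44.5 and 22.0 CPM in CTX, 4.52 and 5.41 in MGE and 2.57 and 2.97 in CGE (edgeR adjusted p = 0.00226). In LGE its 0.0174 and 0.0546 CPM rest on 1 and 2 counts, where peaks covered 6 and 3 bp of the region, and per covered length the log2 fold for CTX against GE was 1.35.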
